A study of Drosophila virilis and Drosophila yakuba with 2 samples.

Results

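The genes described here are the autosomal genes whose annotated locus spans 20 kb or more, in heads of Drosophila virilis and Drosophila yakuba. They were chosen by locus length (end minus start) and by sequence, and the rule used no expression value. Earlier results of these data were known when they were chosen. In yakuba, genes on the chromosome arms 2L, 2R, 3L and 3R were eligible, and in virilis all scaffolds were eligible except 5 left out as X-linked or dot-chromosome, an assignment taken as given. This gave 497 of 14491 gene models in virilis and 345 of 16077 in yakuba. The flies were mated females of a wild-type stock-centre strain of each species, 2 to 5 days old, with no treatment named, and their heads were used. Each species had 1 total RNA library, so replicate error is unknown and the species were not tested against each other. Levels are in FPKM, fragments per kilobase of gene model scaled to the library total.

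A gene in Drosophila becomes long mainly through long introns, since coding sequences differ far less in length. Long fly genes include homeotic genes, other developmental transcription factors and genes of neurons such as receptors and adhesion proteins, many of which have distant regulatory elements in their introns. Their transcription takes longer, and their introns may hold whole other genes. FPKM is scaled to the length of the transcript model rather than to the locus. Transcript lengths were not available, so any effect of locus length on the measured level was not tested.

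The step size of the low FPKM values gave an estimated total of 70750000 fragments for virilis (near-best fits 70000000 to 72750000) and 63250000 for yakuba (61250000 to 64750000). A level of 10 FPKM over 1 kb of effective length then stood for 707.5 fragments in virilis, with a 95% exact Poisson interval of 9.28 to 10.8 FPKM, and 632.5 in yakuba, with 9.24 to 10.8 FPKM. With 3 fragments as the floor, the limit over 1 kb was 0.0424 (virilis) and 0.0474 FPKM (yakuba). Only counting error is covered by these intervals and limits. Of the markers of head tissue, the photoreceptor genes found lay at 62.9 to 8636 FPKM in virilis (4 of 13 found) and 378 to 2177 FPKM in yakuba (3 of 13). The neuronal genes found lay at 12.8 and 33.2 FPKM in virilis (2 of 6) and at 24.5 FPKM in yakuba (1 of 6). Muscle genes found lay higher, at 383 to 1685 FPKM in virilis and 136 to 1053 FPKM in yakuba (4 of 6 each). For fat body 1 of 6 was found in each, a different gene, at 215 FPKM in virilis and 39.2 FPKM in yakuba. A hemocyte gene was found only in yakuba, at 5.39 FPKM (1 of 4). The germline markers found lay at 0.0864 to 3.28 FPKM in virilis (4 of 6) and at 1.17 FPKM in yakuba (1 of 6), and no glial marker was found by symbol in either table.

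Most long genes were expressed in heads of both species, and more often than short genes. In virilis 438 of the 497 long genes (88.1%) reached 1 FPKM, against 71.1% of all autosomal models and 73.2% of the 6105 autosomal models of 1 to 5 kb. In yakuba 313 of the 345 long genes (90.7%) reached 1 FPKM, against 67.7% of all autosomal models and 71.7% of the 6329 models of 1 to 5 kb. The excess over the models of 1 to 5 kb was 15.0 percentage points in virilis and 19.0 in yakuba. The median level of long genes, 14.5 FPKM in virilis and 13.4 in yakuba, was 2.38 and 2.62 times the median of the 1 to 5 kb models (6.11 and 5.12 FPKM). Among models at 1 FPKM or more, the ratio of medians was smaller, at 1.57 in virilis (16.5 against 10.5 FPKM) and 1.52 in yakuba (14.3 against 9.42 FPKM).

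Long genes were also closer to each other in level than short genes were. On the log2(FPKM + 1) scale the SD across genes was 1.89 in virilis and 1.58 in yakuba, against 2.11 and 2.04 for the models of 1 to 5 kb. The width between quartiles was 2.23 in virilis and 1.97 in yakuba, against 3.35 and 3.23, or 1.12 and 1.26 less. Much of this narrowing lay at the low end, since the 10th percentile of long genes was 0.649 FPKM (virilis) and 1.26 FPKM (yakuba), against 0.0780 and 0.0523 FPKM for the shorter class. The 90th percentiles were closer, at 52.7 against 44.8 FPKM in virilis and 38.0 against 35.5 FPKM in yakuba. When only models at 1 FPKM or more were compared, the quartile width was 1.84 against 2.05 in virilis and 1.70 against 2.07 in yakuba, so most of the difference went with the models under 1 FPKM.

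**Figure D1:**
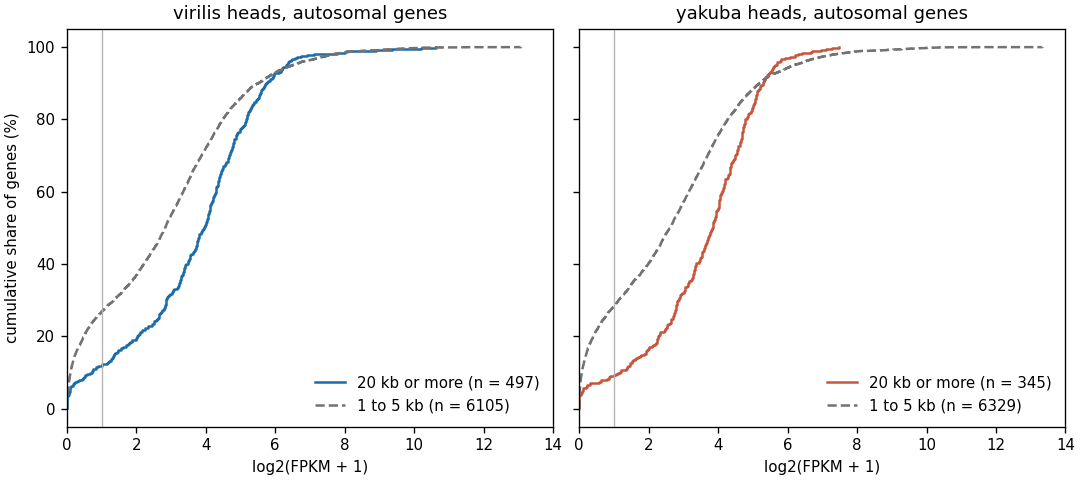
Cumulative share of genes (y axis, percent) at or below each level (x axis, log2(FPKM + 1)) for long autosomal genes (solid) and autosomal genes of 1 to 5 kb (dashed) in each library, with the grey line at 1 FPKM. At the grey line the long-gene curves lie lower, with 11.9% of virilis and 9.28% of yakuba long genes under 1 FPKM, and they then climb more steeply; at 100 FPKM they lie above the dashed curves.

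The middle of the range held most long genes, while both ends held few. Between 10 and 100 FPKM lay 284 long genes in virilis (57.1%) and 198 in yakuba (57.4%), against 33.3% and 31.0% of the models of 1 to 5 kb. At 10 FPKM or more stood 298 long genes in virilis (59.96%, against 39.7% of all autosomal models) and 204 in yakuba (59.1%, against 34.9%). At 100 FPKM or more, the order was the other way. There were 14 long genes at that level in virilis (2.82%, against 5.08% of all autosomal models and 4.52% of those of 1 to 5 kb) and 6 in yakuba (1.74%, against 4.17% and 3.44%).

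Models listed at exactly 0 were about as frequent among long genes as among models of 1 to 5 kb. In virilis 17 long genes were listed at 0 (3.42%, against 6.16% of all autosomal models and 2.92% of those of 1 to 5 kb), and in yakuba 13 (3.77%, against 9.21% and 4.53%). By contrast, long genes from 0.1 to 1 FPKM made up 5.63% in virilis and 3.48% in yakuba, against 15.4% of the 1 to 5 kb models in each. In virilis 11 of the 17 lay on scaffolds with fewer than 300 models. A value listed at 0 can be a failed estimate, which was not tested here.

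The share of genes expressed was related to length among the shorter genes and changed little with length beyond 10 kb. The share at 1 FPKM or more was 59.9% in virilis and 53.3% in yakuba for models under 1 kb. It was 84.9% and 83.8% for models of 5 to 10 kb, and 88.7% and 87.2% for those of 10 to 20 kb. Within the long genes it was 87.1% of 210 virilis and 88.8% of 160 yakuba genes from 20 to 30 kb, 86.7% of 173 and 94.7% of 114 from 30 to 50 kb, and 90.7% of 75 and 89.5% of 57 from 50 to 100 kb. At 100 kb or more, 37 of 39 virilis genes (94.9%) and 12 of 14 yakuba genes reached 1 FPKM, and their median levels were 21.2 and 16.8 FPKM. The long classes under 100 kb had lower medians, from 11.8 to 16.0 FPKM in virilis and from 12.1 to 13.6 FPKM in yakuba. The long genes therefore differed much less from models of 5 to 10 kb, whose medians were 11.6 and 11.1 FPKM, than from those of 1 to 5 kb. Across the long genes alone, the Spearman correlation of span with FPKM was -0.026 in virilis (497 genes) and 0.018 in yakuba (345 genes), as a description across genes of 1 library.

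**Figure D2:**
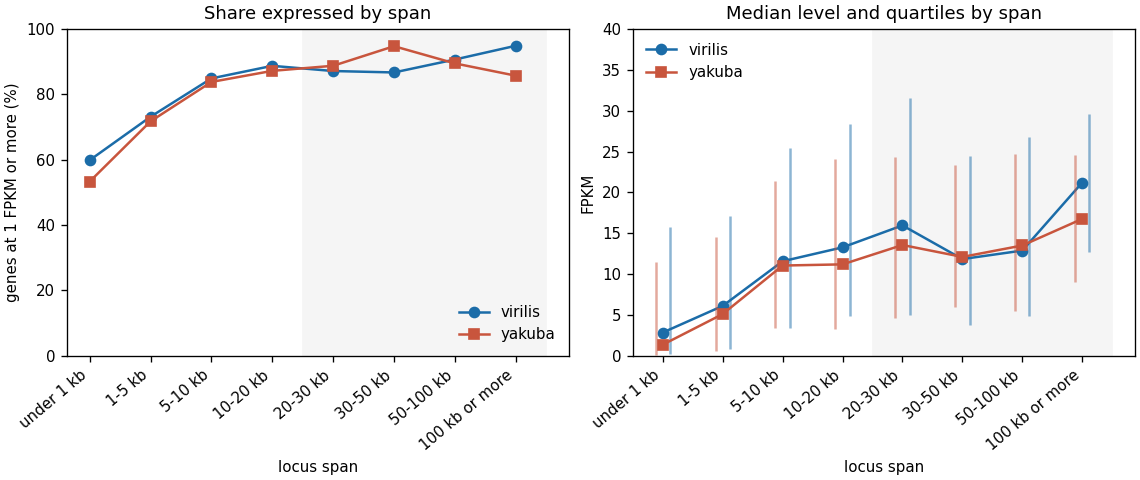
Left, share of autosomal genes at 1 FPKM or more (y axis, percent) by class of locus span; right, median FPKM (points) with the quartiles (vertical lines), which are a spread over genes and not a replicate error. The shaded classes are the long genes; the share climbs from 59.9% (virilis) and 53.3% (yakuba) under 1 kb to 88.7% and 87.2% at 10 to 20 kb and stays between 85.7% and 94.9% in the shaded classes.

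The values near the length limit differed little between its sides. The 5 genes just inside it had spans of 20012 to 20063 bp and 0.416 to 50.8 FPKM in virilis, and 20110 to 20206 bp and 0 to 102 FPKM in yakuba. The 5 just outside it had spans of 19823 to 19934 bp and 6.50 to 324 FPKM in virilis, and 19741 to 19999 bp and 8.63 to 207 FPKM in yakuba. From 20 to 22 kb, 57 of 65 virilis genes and 31 of 35 yakuba genes reached 1 FPKM, and from 18 to 20 kb, 62 of 69 and 57 of 66.

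The long genes were 4.05% of the autosomal models in virilis and 2.83% in yakuba. Their loci covered 42.4% (22.4 Mb) and 32.0% (13.7 Mb) of all sequence covered by autosomal loci. Since length chose these genes, a covered share above their share of models follows from the rule. Their share of the summed autosomal FPKM was 3.81% in virilis and 1.87% in yakuba. The median span was 32899 bp in virilis and 30915 bp in yakuba. The longest loci without a symbol were GJ11221 in virilis at 566 kb (FBgn0198482, scaffold_13049, 24438021 to 25004005) with 26.7 FPKM and GJ11152 at 354 kb (FBgn0198413, scaffold_12958, 1090467 to 1444738) with 19.4 FPKM. In yakuba they were GE22169 at 168 kb (FBgn0239397, 3L, 16844272 to 17011872) with 37.9 FPKM and GE19509 at 145 kb (FBgn0236850, 3L, 22685272 to 22829795) with 20.2 FPKM. These loci had levels above the median of long genes in their library, while the next 2 in length lay below it, at 4.66 and 0.447 FPKM in virilis and 0.485 and 0.148 FPKM in yakuba. What they encode is not named in the tables.

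The highest long genes lay further up in virilis than in yakuba, but the size of this contrast depended on the length limit. In yakuba, Mhc (19371 bp, 490 FPKM) and a model of 19966 bp (207 FPKM) fell just short of it. Both lay above every long gene of yakuba, while virilis Mhc was inside the limit at 20864 bp. GJ14472 led in virilis at 1577 FPKM over 27021 bp (FBgn0201683, scaffold_12963, 686338 to 713358), followed by Mhc and by GJ12807 at 925 FPKM over 20109 bp (FBgn0200042, scaffold_13049, 1654612 to 1674720). GE11656 led in yakuba at 178 FPKM (FBgn0229453, 2R, 18209411 to 18310096), followed by GE20396 at 154 FPKM (FBgn0237712, 3L, 8256433 to 8287442). GE11656 was also among the 14 yakuba genes of 100 kb or more, while the virilis leaders named here spanned under 30 kb. Virilis genes of 100 kb or more reached up to 261 FPKM. Of these, 2 of 39 were at 100 FPKM or more, against 1 of 14 in yakuba. Of all autosomal models, 5.08% in virilis and 4.17% in yakuba were at that level.

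**Figure D3:**
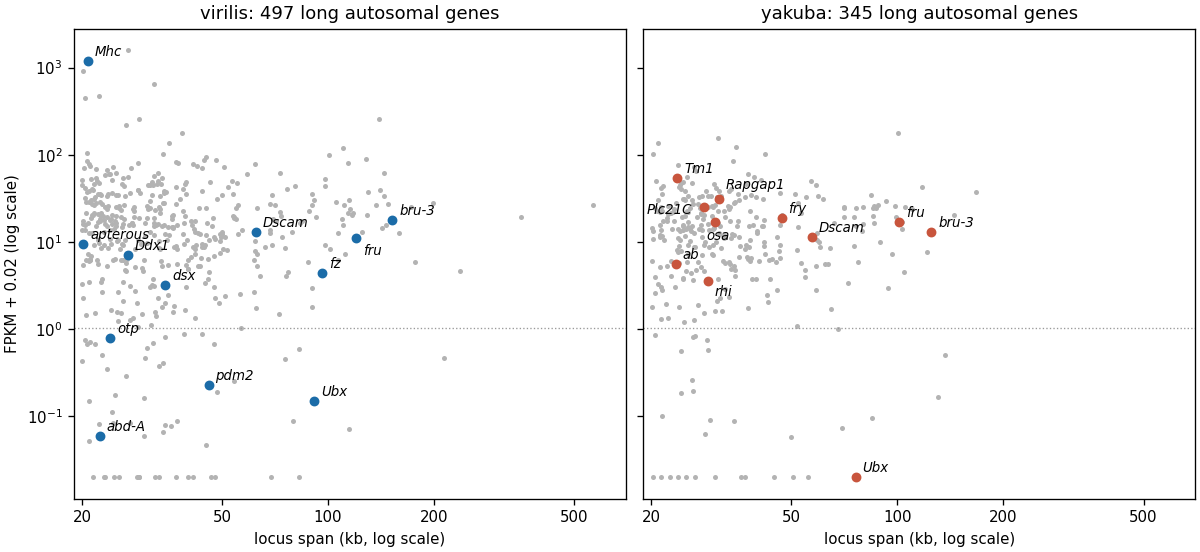
Level (y axis, FPKM + 0.02, log scale) against locus span (x axis, kb, log scale) for each long autosomal gene, with the genes that carry a symbol in colour and the dotted line at 1 FPKM. Across all long genes the cloud shows little trend along the span axis in both libraries (Spearman -0.026 and 0.018). Points on the lowest row are the 17 virilis and 13 yakuba genes listed at 0.

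Only few long genes carried a gene symbol, 12 in virilis (2.41%) and 11 in yakuba (3.19%), and all others are listed by systematic identifier, with no gene name beside it. All with a symbol are described here by role. Of the 12 in virilis, 8 reached 1 FPKM, as did 88.1% of all long genes there. Their median was 5.77 FPKM, below the 14.5 FPKM of long genes as a whole. Of the 11 in yakuba, 10 reached 1 FPKM, about the 90.7% of all long genes there. Their median was 16.7 FPKM, above the 13.4 FPKM of long genes as a whole. Genes of muscle had the highest levels among them and homeotic genes the lowest.

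Homeotic genes encode homeodomain transcription factors that give body segments their identity. Ubx, which specifies the posterior thorax and anterior abdomen, was at 0.130 FPKM in virilis over a locus of 91355 bp (FBgn0013100, scaffold_13047, 5693687 to 5785041). In yakuba it was listed at 0 over 76109 bp (FBgn0260732, 3R, 11830113 to 11906221). abd-A, which specifies abdominal segments, was at 0.0400 FPKM in virilis over 22538 bp (FBgn0016478, scaffold_12855, 449901 to 472438), just under the floor for 1 kb. Both were among the lowest long genes, at ranks 465 and 478 of 497 in virilis. Of the same family, Antp and lab were under 20 kb in virilis and stood at 0.583 and 1.58 FPKM.

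Other long transcription factor genes ranged from low to moderate. In virilis the POU-domain gene pdm2, which acts in neuroblasts, was at 0.211 FPKM over 45849 bp, and the homeobox gene otp was at 0.774 FPKM over 24095 bp. Both stayed under 1 FPKM. The LIM-homeodomain gene apterous, required for wing development and in subsets of neurons, was higher at 9.49 FPKM over 20187 bp. In yakuba ab, a BTB zinc-finger gene that shapes dendrites, was at 5.59 FPKM over 23503 bp. The chromatin remodelling gene osa, a subunit of the Brahma complex, was at 16.9 FPKM over 30254 bp. It stood above the median of the long genes in yakuba and ab below it. Of 101 symbols in a list of transcription factors, 23 were found in virilis, 5 of them long, and 15 in yakuba, 4 of them long. The long ones had medians of 0.211 FPKM in virilis and 11.2 FPKM in yakuba, against 8.29 and 8.88 FPKM over all found. Symbols were found on any sequence, while only autosomal genes counted as long, so the sets differ in this too. The list lacks otp and the spelling apterous; with these, the virilis long transcription factor genes numbered 7 and had a median of 0.774 FPKM.

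Sex determination in Drosophila ends in fru and dsx, transcription factor genes whose transcripts are spliced differently in females and males. The fru gene, which organises courtship circuits, was at 11.1 FPKM in virilis over 120286 bp (FBgn0043390, scaffold_12855, 4521196 to 4641481). In yakuba it was at 16.7 FPKM over 101101 bp (FBgn0043389, 3R, 2884293 to 2985393). The dsx gene was at 3.20 FPKM in virilis over 34531 bp. In virilis fru thus stood higher than dsx, with both below the median of long genes.

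Genes acting at the cell surface and in signalling were at low to moderate levels. All 5 reached 1 FPKM, as did 88.1% of long genes in virilis and 90.7% in yakuba. Dscam, an immunoglobulin-family receptor gene with extensive alternative splicing that guides axons and dendrites, was at 13.0 FPKM in virilis over 62541 bp (FBgn0082392, scaffold_12875, 10714966 to 10777506). In yakuba it was at 11.4 FPKM over 57365 bp (FBgn0045505, 2L, 15892806 to 15950170). The Wnt receptor gene fz, which also sets planar cell polarity, was at 4.44 FPKM in virilis over 96201 bp. Other yakuba genes of signalling or cell shape were higher than both, and above the yakuba median of long genes. They were Rapgap1, which encodes an activator of the GTPase activity of Rap1, at 31.4 FPKM over 31074 bp, the phospholipase C gene Plc21C at 25.1 FPKM over 28168 bp, and fry, which acts in cell and dendrite morphogenesis, at 18.6 FPKM over 46911 bp.

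Among genes of RNA handling, bru-3, which encodes an RNA-binding protein of the Bruno family, was the longest gene with a symbol in each table. It was at 17.7 FPKM in virilis over 152363 bp (FBgn0201061, scaffold_13049, 19758238 to 19910600) and at 13.2 FPKM in yakuba over 124924 bp (FBgn0237378, 3L, 13627503 to 13752426). The DEAD-box helicase gene Ddx1 was at 7.10 FPKM in virilis over 27039 bp. In yakuba rhi, which encodes a heterochromatin protein of germline piRNA clusters in D. melanogaster, was at 3.58 FPKM over 29039 bp.

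Both muscle genes were far above the typical long gene. Mhc, the muscle myosin heavy chain gene, was at 1181 FPKM in virilis over 20864 bp (FBgn0022428, scaffold_12963, 10115477 to 10136340), the second highest level of the 497 long genes. Its yakuba locus of 19371 bp fell just short of the length limit and had 490 FPKM (FBgn0068126, 2R, 4314006 to 4333376), above every long gene of that library. Tm1, which encodes a tropomyosin, was at 54.3 FPKM in yakuba over 23704 bp, rank 14 of 345. In whole heads, fewer cells of a type and less RNA per cell cannot be told apart.

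**Figure D4:**
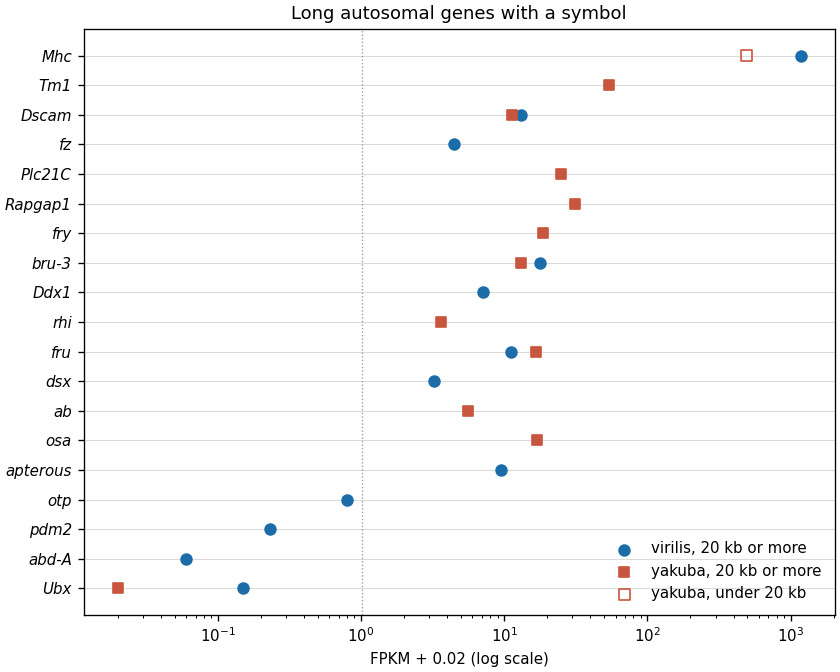
Level (x axis, FPKM + 0.02, log scale) of each long autosomal gene with a symbol in virilis (circles) and yakuba (squares), 1 library each, with an open symbol where the locus is under 20 kb and the dotted line at 1 FPKM. The muscle genes Mhc and Tm1 lie to the right, up to 1181 FPKM, and the homeotic genes Ubx and abd-A to the left of all others.

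Between species, 5 of the genes with a symbol could be set side by side, 4 of them long in both tables and Mhc long in virilis only. The virilis locus was 1.09 times the length of the yakuba locus for Dscam, 1.19 times for fru, 1.20 times for Ubx and 1.22 times for bru-3. Over all 77 genes with the same symbol in both tables, the median ratio was 1.03, with quartiles of 0.991 and 1.19. Since length chose the long genes, their ratios are a description. Relative to the median of the 52 genes with the same symbol in both tables and 1 FPKM or more in both, the log2 ratio of virilis to yakuba on FPKM + 1 was 0.60 for bru-3, 0.38 for Dscam and -0.36 for fru. These 3 long genes were all within 2-fold of that median. Of the 5, only Mhc was past 2-fold, at 1.47, where 19.5% of the 41 same-symbol genes that reached 10 FPKM in at least 1 library were past it in either direction. The shorter muscle genes Mlc1 and wupA, which encode a myosin light chain and troponin I, were past it in the same direction, at 1.67 and 1.97. Other genes of the 41 were past it in both directions, from -3.86 to 3.23, and the lowest of these was listed at 0 in virilis. Ubx was too low in both libraries for a fold. The species, their annotations and the libraries cannot be told apart in these ratios.

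The long genes were expressed on every yakuba arm, with some variation. The share at 1 FPKM or more was 94.9% of 78 genes on 2L, 92.96% of 71 on 2R, 84.6% of 91 on 3L and 91.4% of 105 on 3R, against 71.1% to 72.1% of the 1 to 5 kb models of the same arms. Median levels were 15.3, 11.1, 13.6 and 13.5 FPKM in that order. In virilis the 4 scaffolds with the most long genes had shares of 93.3% (90 genes on scaffold_13049), 90.4% (83 on scaffold_12963), 93.8% (81 on scaffold_13047) and 91.3% (69 on scaffold_12875). Their medians lay between 13.7 and 17.3 FPKM. On scaffold_12726 the share was 10 of 16 long genes (62.5%), close to the 61.8% of the 1 to 5 kb models there, and the medians were 2.46 and 4.69 FPKM.

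Long genes on smaller virilis scaffolds were less often expressed, as were shorter models there. On the 7 scaffolds with at least 300 models, 373 of 410 long genes (91.0%) reached 1 FPKM, against 73.8% of the 1 to 5 kb models, and 6 were listed at 0 (1.46%, against 2.57%). On the other scaffolds 65 of 87 (74.7%) reached 1 FPKM, against 68.0% of the 1 to 5 kb models, and 11 were listed at 0 (12.6%, against 5.82%). Long genes were most concentrated, among scaffolds with at least 50 models, on scaffold_12958. There 8 of 53 models (15.1%) were long, with a median span of 111848 bp and a median level of 23.9 FPKM.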

How the data were processed

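Total RNA (1 µg per library) was made into stranded total RNA libraries, per the labels' protocols. The authors deposited 1 FPKM value per gene model, with an identifier, name and locus, per the file headers. TopHat and Cufflinks are named in the submitters' processing notes; versions, genome builds, annotation releases and the use of strand are not given in the sources used, so reads of overlapping loci may not be separable. FPKM values also depend on how complete each gene model is.

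Starts were taken as counted from 0, since 66.8% (virilis) and 67.6% (yakuba) of spans under 900 bp were multiples of 3, and are printed counted from 1. Library totals were estimated from the steps of low FPKM values: 58.9% and 49.2% of the values used came out whole within 0.04 fragments, and the estimator was tested on simulated data. Medians, quartiles and SDs across genes were computed with Python 3.11.15, pandas 2.3.3, NumPy 2.4.6 and SciPy 1.17.1, without tests or p-values, since each species had 1 library. Levels were summarised on log2(FPKM + 1), and no filter on low values was used except where a minimum of 1 or 10 FPKM is stated.

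Genes were recognised by symbol. All long genes with a symbol were named, plus the 2 highest and the 2 longest without one in each library. Antp and lab were added after their values were seen, and Mlc1 and wupA were also outside this naming rule. Members and the 7 gene lists were chosen with earlier results of these data known. A gene table of another D. virilis assembly matched 0 of the identifiers and was not used.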

Additional observations from a re-analysis of the deposited data

How the results depend on the processing

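The long genes had a higher share expressed, a higher median and a narrower quartile width than the comparison models under every alternative tried. This held in both libraries, but the size depended on the choices. Models of 10 to 20 kb were not among the comparisons tried. Their share at 1 FPKM or more was 88.7% in virilis, slightly above the 88.1% of the long genes, and 87.2% in yakuba, against 90.7%. Against models of 5 to 10 kb, the excess in share was 3.23 percentage points in virilis and 6.92 in yakuba, the difference in median log2(FPKM + 1) 0.31 and 0.26, and the difference in quartile width -0.36 and -0.40. Against models of 2 to 5 kb, the excess was 10.8 and 14.1 points and the median difference 0.90 and 0.90. With expression set at 5 FPKM, 75.5% of long genes in virilis and 76.5% in yakuba were expressed, an excess of 20.8 and 26.1 points. On the 7 virilis scaffolds with at least 300 models the share was 91.0%. With a pseudocount of 5 FPKM the median difference was 0.81 and 0.86 and the width difference -0.24 and -0.30; with 0.1 FPKM the width difference was -1.88 and -2.15. Over models at 1 FPKM or more, the median difference was 0.61 and 0.56 and the width difference -0.21 and -0.37. A length limit of 15 or 30 kb and leaving out long genes that hold another model kept the share within its 95% exact binomial interval and the median and width differences within ranges set by the order-statistic intervals of the long genes' median and quartiles; these are intervals over genes, which are not replicates. Leaving out models listed at 0 was run for the median and the width, which stayed within the same ranges. Of the 5 genes set side by side between species, only Mhc was counted past 2-fold in each alternative; Ubx had a log2 ratio of 1.42 with a pseudocount of 0.1 FPKM but was under the 10 FPKM minimum. No paired analysis was possible because each species had 1 library.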

Other observations

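Some long genes held other gene models within their loci, and no share for shorter loci was set beside this. In virilis 126 of the 497 long genes (25.4%) and in yakuba 118 of the 345 (34.2%) had at least 1 whole model inside, up to 9 and 7. Long genes with a model inside had medians of 15.3 (virilis) and 11.8 FPKM (yakuba), and those without one 14.2 and 13.7 FPKM. Those with a model inside were also longer, with median spans of 38918.5 against 31899 bp in virilis and 34874.5 against 29588 bp in yakuba. The models of 1 to 5 kb inside a long gene were expressed less often than other autosomal models of that length. At 1 FPKM or more stood 49 of 87 in virilis (56.3%, against 73.4% of 6018) and 47 of 85 in yakuba (55.3%, against 72.0% of 6244), with medians of 1.43 and 1.21 FPKM against 6.18 and 5.20 FPKM. Strand was not used in this count, and reads of a host gene and of a model inside it may not be separable.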
